A study of Homo sapiens with 36 samples.

Results

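The step between 50 µM and 25 µM perfluorooctane sulfonate (PFOS) was examined in HMC3 cells exposed for 24 h, over all genes of the deposited RNA-seq count table. Members were chosen by sample label alone: 3 libraries labelled 50 µM PFOS at 24 h and 3 labelled 25 µM PFOS at 24 h, which are 6 of the 18 RNA-seq libraries and 6 of the 36 samples of the series. The 3 vehicle libraries at 24 h served to place each gene on the dose scale, and the remaining 9 RNA-seq libraries (the same doses followed by 24 h without PFOS) entered the model fit. The 18 H3K27ac CUT&Tag samples were not used here. HMC3 is an immortalised human line obtained from ATCC and labelled as microglial. PFOS is a persistent perfluorinated surfactant, and the solvent of the vehicle is not named in the labels. No genetic change is named in any group, and every group is a model of 1 line. RNA was extracted with TRIzol, and full-length cDNA libraries were made by Smart-seq2 with poly(A) selection from 100 ng of RNA. The labels call the replicates biological; nothing says whether they came from separate cultures on separate days, and what the p-values reflect is the variation among the libraries at hand, part of which may be technical.

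Of 17 microglial markers, 9 were at 0 in all 9 libraries at 24 h, among them AIF1, CX3CR1, ITGAM, SPI1, TYROBP and C1QA. The cells are therefore called HMC3 cells, not microglia. Of 13 mesenchymal markers, 12 were measured well enough to test. The summed level of the 13 was 2007 to 2259 CPM (counts scaled to a common library total) at 50 µM, 3101 to 3483 CPM at 25 µM and 3709 to 3854 CPM in vehicle. The microglial markers summed to 280 to 317 CPM at 50 µM, 218 to 247 CPM at 25 µM and 216 to 242 CPM in vehicle.

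Cells meet a shortage of amino acids or a load of misfolded protein by the integrated stress response, in which phosphorylation of eIF2α slows protein synthesis while the transcription factor ATF4 is translated and turns on genes for amino acid supply. Misfolded protein in the endoplasmic reticulum (ER) in addition activates the unfolded protein response, whose ATF6 and XBP1 arms raise chaperones and degradation factors. Sterol supply is watched by the SREBP transcription factors, which are cleaved in the Golgi and drive the genes of cholesterol and fatty acid synthesis when ER cholesterol is low.

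The second dose step, 50 µM over 25 µM, called more genes than the first step, 25 µM over vehicle. Of 9847 genes tested, 373 were higher at 50 µM than at 25 µM (3.79%) and 356 were lower (3.62%), together 7.4%, with edgeR's quasi-likelihood test and a Benjamini-Hochberg adjusted p under 0.05. The first step called 77 genes higher (0.782%) and 45 lower (0.457%), together 1.24%. Across both steps, 50 µM over vehicle, 904 genes were higher (9.18%) and 944 lower (9.59%), together 18.8%. Each count of list members below is to be read beside these shares. Of the 729 genes of the second step, 306 changed at least 2-fold. The 25 µM libraries enter both steps with opposite sign and the vehicle libraries enter the first step and the whole span, so the counts are not independent of each other. A gene was tested when at least 3 libraries held about 7.44 CPM or more, and 23 genes reached this only in the 50 µM libraries at 24 h. They were tested because they were high there, and 13 of the 373 higher genes are among them, including, of those named below, CXCL8, SERPINB2, NDRG1, THBD, TM4SF19 and RPLP0P2. In bulk RNA, fewer cells of a kind and less RNA per cell cannot be told apart.

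Depth was low, between 967960 and 1931726 counts in the 50 µM libraries, between 1367642 and 3679746 at 25 µM and between 882883 and 3435906 in vehicle. The second-step log2 change of a gene had a median standard error (SE) of 0.26. In a principal component analysis of the 9 libraries at 24 h the first component (47.3% of the variance) put the 50 µM libraries at 28.6 to 40.4, the 25 µM libraries at -8.9 to -6.9 and the vehicle libraries at -29.6 to -24.6. The second component (15%) set apart 50 µM library 2 at 19.9 and vehicle library 1 at 31.5. Among the 373 genes called higher, 50 µM library 2 was the highest of its group in 195 (52.3%), against 36.6% of all genes tested. The count of 729 was 407, 396 and 541 without 50 µM library 1, 2 and 3 and 423, 347 and 439 without 25 µM library 1, 2 and 3. It was 727, 671 and 610 without vehicle library 1, 2 and 3, and 376 without both libraries set apart. Over 9806 genes the second-step change had a Spearman correlation of -0.14 with the genomic length of the gene, a description across genes of shared libraries. With that trend removed, the second-step medians given below moved by over 1.5 times for 6 lists: 0.23 for ribosomal proteins, 0.07 for autophagy, 0.01 for the BCL2 family, 0.07 for synthetases, -0.01 for the respiratory chain and -0.05 for MHC class I. The part of library or RNA quality in this trend was not tested. Steps are given below as log2 changes ± SE, with n = 3 libraries in each group. For each gene, a call is said to hold in so many of 9 refits, each of which left out 1 of these 9 libraries.

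Dose patterns were described from both steps. A gene was placed in the 50-µM-only pattern when the second step was called and the 95% interval of its first step lay within ±0.58 on the log2 scale, which is 1.5-fold. That pattern held 237 genes (2.41% of those tested), 100 higher and 137 lower. Genes called in both steps in the same direction, the graded pattern, numbered 65 (0.66%), with 37 higher and 28 lower. Genes called in the first step with the interval of the second within ±0.58, called full at 25 µM, numbered 15 (0.152%), of which 14 were higher and 1, RACGAP1, was lower. Only 2 genes (0.0203%) were called in opposite directions, and 465 called genes (4.72%) could not be placed, because 1 of their steps was neither called nor confined to the interval. The classes are descriptions and not tests of a difference between the steps. A 50-µM-only gene can still have moved at 25 µM by less than 1.5-fold.

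**Figure D1:**
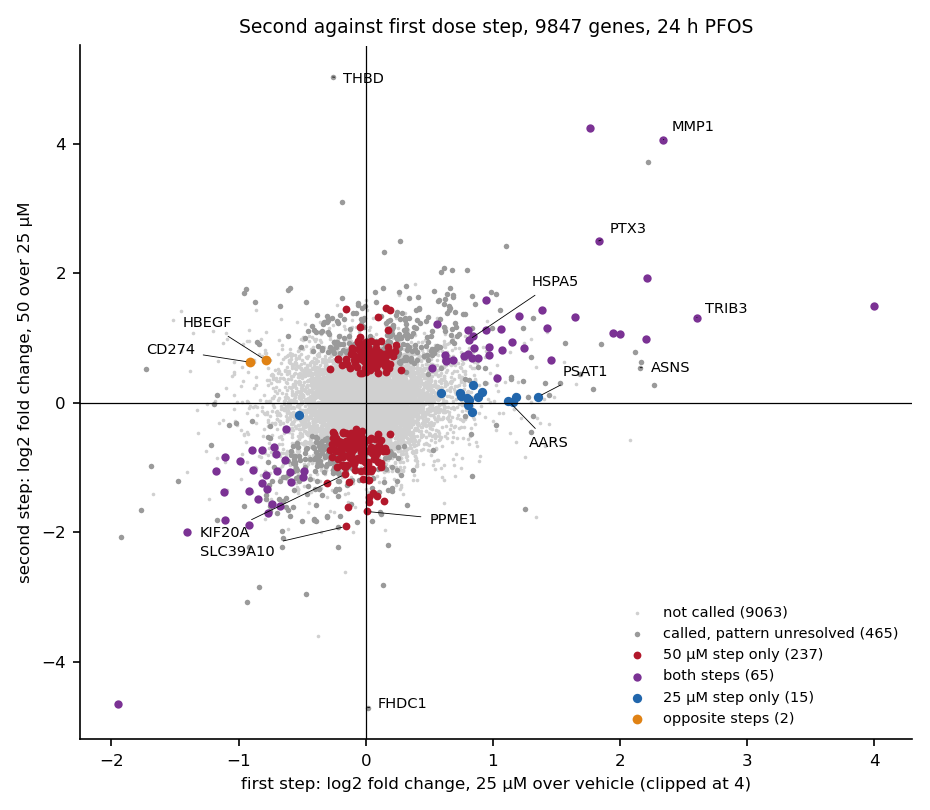
Each point is 1 of 9847 tested genes, with the log2 change of 25 µM over vehicle on the x axis and of 50 µM over 25 µM on the y axis, coloured by dose pattern. The 50-µM-only genes lie along the vertical line at 0 by construction, and the 15 genes full at 25 µM lie along the horizontal one.

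The difference between the steps was itself tested, as the second log2 change minus the first. It called 4 genes (0.0406%), all with a lower second step, and 657 genes had an unadjusted p under 0.05. Its median SE was 0.43, against 0.26 for the second step. For every other gene, a call in 1 step and none in the other does not show that the steps differ. SLC39A10, a zinc importer of the plasma membrane, had 50.7, 56.2 and 50.99 CPM in the 50 µM libraries, against 209.6, 191 and 192 CPM at 25 µM, with 234, 214 and 211 CPM in vehicle. Every 50 µM library was far below the other 6, while the 25 µM and vehicle libraries lay close together. Its second step was -1.91 ± 0.14 log2 units, its first -0.15 ± 0.13, and the difference -1.75 ± 0.22 (± SE, adjusted p = 0.00102), which was called in 9 of 9 refits.

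PPME1, which removes the carboxyl methyl group of protein phosphatase 2A, had 612, 673 and 589 CPM at 50 µM, against 1909.8, 2065 and 2016 CPM at 25 µM, and 2102, 1886 and 1974 CPM in vehicle. The 25 µM and vehicle libraries overlapped and the 50 µM libraries stood alone below them. The difference between its steps, -1.69 ± 0.25, had an adjusted p of 0.00722 and was called in 6 of 9 refits, lost without each 25 µM library. PLCB4, a phospholipase C, showed the same order with 203, 212 and 209 CPM at 50 µM, against 466, 469.7 and 487 CPM at 25 µM and 469, 500.1 and 434 CPM in vehicle. PSAT1, described next, was the 4th gene. For PLCB4 and PSAT1 the call of the difference was lost in each of the 9 refits, while the second step of PLCB4 (-1.19 ± 0.13, adjusted p = 5.68e-06) held in 9 of 9 refits.

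Genes for making amino acids and charging tRNAs were called mainly in the first step. Of 14 genes of amino acid and one-carbon synthesis, all tested, 7 were higher at 25 µM than in vehicle and 1 was higher at 50 µM than at 25 µM. The median log2 change was 0.11 in the second step and 0.83 in the first, against 0.008 and -0.0041 over all genes tested. Of 20 cytosolic aminoacyl-tRNA synthetases, 8 were higher in the first step and 2 in the second, with medians of 0.47 in the first and 0.04 in the second. Without 25 µM library 2 the first-step synthetase count was 4, and 2 synthetases were full at 25 µM; in the other 8 refits these counts were 7 or 8 and 5 or 6. Together these lists supplied 9 of the 15 genes full at 25 µM: PSAT1, PHGDH and MTHFD2, and the synthetases AARS, YARS, MARS, CARS, IARS and NARS.

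PSAT1, the aminotransferase of serine synthesis, had 927, 958 and 875 CPM at 50 µM, against 854, 903 and 829 CPM at 25 µM, and 322, 355 and 333 CPM in vehicle. The 50 and 25 µM libraries overlapped, and both lay above every vehicle library. Its second step was 0.09 ± 0.13 (95% interval -0.18 to 0.37, adjusted p = 0.739) and its first 1.35 ± 0.13 (adjusted p = 4.28e-06), so that 93.6% of the log2 change at 50 µM was present at 25 µM. PHGDH, the first enzyme of the same pathway, had 326, 326 and 332 CPM at 50 µM, against 305, 311 and 304 CPM at 25 µM and 115, 143 and 144 CPM in vehicle. Its 50 µM libraries did not overlap those at 25 µM, but the step was small, 0.10 ± 0.16, with an adjusted p of 0.782. MTHFD2, the mitochondrial folate dehydrogenase, had 75.6% of its 50 µM change at 25 µM, with steps of 0.27 ± 0.14 and 0.85 ± 0.15.

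Among the synthetases, AARS, which charges alanine tRNA, had 761, 712 and 887 CPM at 50 µM, against 750.4, 845 and 714 CPM at 25 µM and 335, 352 and 373 CPM in vehicle. The 2 dosed groups overlapped fully and were separate from vehicle. The second step of AARS was 0.03 ± 0.21 (95% interval -0.40 to 0.46) and its first 1.12 ± 0.21 (adjusted p = 0.00597), a call lost without 25 µM library 2. YARS, for tyrosine, was placed at 325, 289.8 and 289.6 CPM at 50 µM, against 331, 329 and 333 CPM at 25 µM and 174, 195 and 186 CPM in vehicle. Here the 50 µM libraries were all slightly below the 25 µM ones, with a second step of -0.14 ± 0.15 that was not called (adjusted p = 0.653). The exception was WARS, the tryptophan enzyme, whose second step of 1.03 ± 0.20 was called (adjusted p = 0.00235) in 9 of 9 refits and whose first step of 0.72 ± 0.20 was not. The other synthetase called in the second step, GARS, lost that call in each refit, so the count of 2 became 1. The first-step calls of MARS and CARS held in 7 of 9 refits and 8 of 9 refits.

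Not every gene of amino acid supply could be called full. ASNS, asparagine synthetase, had 352, 348 and 314 CPM at 50 µM, against 206, 227 and 262 CPM at 25 µM and 44.7, 49.7 and 58.6 CPM in vehicle. Its groups did not overlap in either step; the second step of 0.54 ± 0.19 missed the threshold (adjusted p = 0.0824) but its interval, 0.16 to 0.93, reached beyond 1.5-fold. SHMT2, the mitochondrial serine hydroxymethyltransferase, was in the same position, with steps of 0.40 ± 0.14 and 1.14 ± 0.15. ALDH1L2, a mitochondrial folate enzyme, was graded: 120.0, 114 and 119 CPM at 50 µM, against 41.8, 67.98 and 55.98 CPM at 25 µM and 15.3, 12.6 and 14.7 CPM in vehicle, with a second step of 1.06 ± 0.20 (adjusted p = 0.00215) that held in 9 of 9 refits.

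Beyond these lists, LONP1, a protease of the mitochondrial matrix, and ACADVL, the first enzyme of very long-chain fatty acid oxidation, were full at 25 µM. LONP1 had 116, 80.02 and 142 CPM at 50 µM, against 112, 121 and 104 CPM at 25 µM and 39.99, 50.4 and 57.7 CPM in vehicle, and ACADVL had 279, 273 and 367, against 277, 289 and 250.3 and 123, 141 and 165 CPM. In both genes the dosed groups overlapped and lay above vehicle. Their first-step calls were less stable than those above, holding in 3 of 9 refits and 5 of 9 refits, as was that of NIPAL3, in 3 of 9 refits. The 15 genes full at 25 µM became 4 to 12 when 1 library was left out.

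Because ATF4 and its partners bind a composite element in their target genes, the 250 bases upstream of the RefSeq start (GRCh38.p14) were searched on both strands for TGATGNAA. It was present in 3.14% of 35116 promoters. Of the amino acid synthesis genes with a listed promoter, 3 of 9 held it (ASNS, MTHFD1L and GOT1), and of the synthetases 2 of 16 (AARS and IARS). None of 10 amino acid transporters held it. The match in ASNS and AARS is shown in capitals, 5′ to 3′ on the strand of the gene, because both genes were called in the first step and not in the second. A match is a run of letters and was not tested for binding.
ASNS chr7:97872439-97872506 (- strand): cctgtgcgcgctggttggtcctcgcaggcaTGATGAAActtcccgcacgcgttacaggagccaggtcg
AARS chr16:70289656-70289723 (- strand): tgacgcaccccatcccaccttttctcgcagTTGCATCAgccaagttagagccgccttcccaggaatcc

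**Figure D2:**
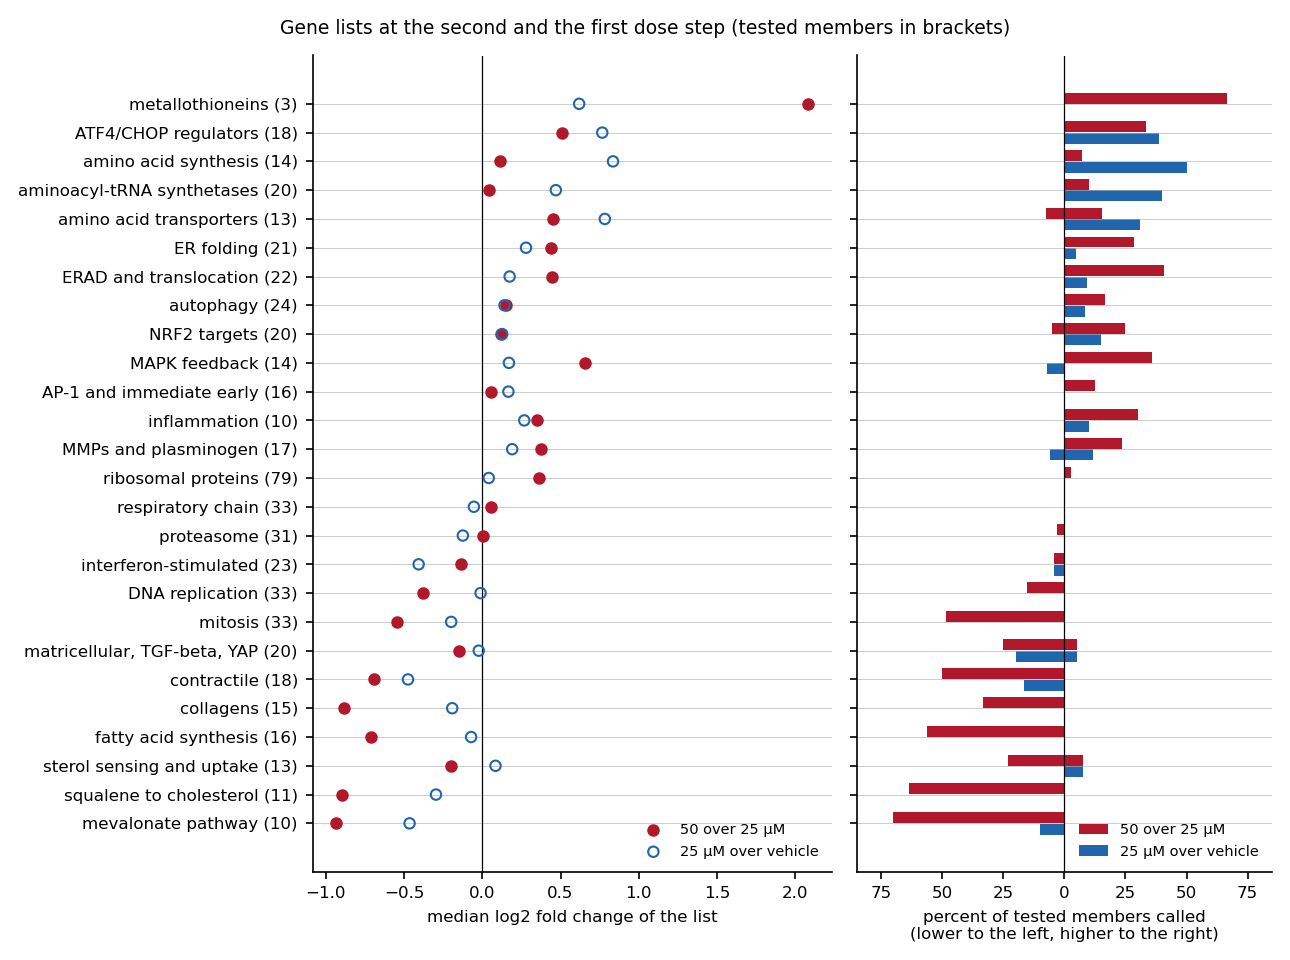
Left, the median log2 change of each list over its tested members for 50 µM over 25 µM (filled) and 25 µM over vehicle (open); right, the percent of tested members called, lower to the left and higher to the right. The synthetase and amino acid synthesis lists have second-step medians of 0.04 and 0.11 and first-step medians of 0.47 and 0.83, and the mevalonate list lies lowest at -0.94 in the second step.

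Regulators of the integrated stress response were called in both steps. Of 22 listed, 18 were tested; 6 were higher in the second step and 7 in the first, with medians of 0.51 and 0.77. The second-step count was 3 without 25 µM library 2 or 25 µM library 3 and 4 without 50 µM library 2, and the first-step count was 4 without 25 µM library 2 or vehicle library 2. TRIB3, a pseudokinase that feeds back on this response, had 852, 760.2 and 935 CPM at 50 µM, against 287, 404 and 328 CPM at 25 µM and 44.7, 58.01 and 61.5 CPM in vehicle. The 3 groups were separate. Its second step was 1.32 ± 0.23 (adjusted p = 0.00113) and its first 2.60 ± 0.25 (adjusted p = 4.28e-06), and both held in 9 of 9 refits.

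DDIT3, which encodes the transcription factor CHOP, had 158, 154 and 135 CPM at 50 µM, against 51.9, 42.4 and 48.4 CPM at 25 µM and 29.4, 23.8 and 27.1 CPM in vehicle. Its second step of 1.65 ± 0.24 was called (adjusted p = 0.000167) in 9 of 9 refits; the first, 0.84 ± 0.26, was not (adjusted p = 0.177), although the 25 µM libraries lay above every vehicle library. PPP1R15A, the phosphatase subunit that reverses eIF2α phosphorylation, had 671, 640.2 and 727 CPM at 50 µM, against 295, 355 and 325 CPM at 25 µM, a step of 1.06 ± 0.21 (adjusted p = 0.00268) that also held in 9 of 9 refits. ATF4 itself, named after its values were seen, was graded, with steps of 0.69 ± 0.17 and 0.84 ± 0.18; the second was lost without 50 µM library 1 or any single 25 µM library.

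Other members of this list were called in the first step and not in the second. SESN2, a leucine sensor that restrains mTORC1, rose by 1.68 in the first step and had a second of 0.45 ± 0.26 that was not called. DDIT4, another brake on mTORC1, had 42.4, 42.2 and 48.4 CPM at 50 µM, against 51.1, 46.9 and 56.6 CPM at 25 µM and 21.2, 17.7 and 22.97 CPM in vehicle. The dosed groups of DDIT4 overlapped, and its second step was -0.20 ± 0.20. CEBPG, a bZIP partner of ATF4, was full at 25 µM with steps of 0.08 ± 0.15 and 0.80 ± 0.15. CHAC1, which degrades glutathione, had a first step of 1.85 ± 0.32 (adjusted p = 0.00267) and a second of 0.91 ± 0.28 (adjusted p = 0.0557) that was not called.

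Amino acid transporters were divided in the same manner. Of 14 listed, 13 were tested; 2 were higher and 1 lower in the second step, and 4 were higher in the first. SLC3A2, the heavy chain of several exchangers, had 865, 776 and 875 CPM at 50 µM, against 458, 495 and 444 CPM at 25 µM and 248, 248 and 277 CPM in vehicle. Its steps were equal to 2 decimals, 0.85 ± 0.14 and 0.85 ± 0.14, and both were called in 9 of 9 refits. SLC38A1, a glutamine transporter, was also graded (0.81 ± 0.13 and 1.07 ± 0.13). SLC7A11, the cystine importer, had a first step of 2.12 ± 0.33 (adjusted p = 0.000869) and a second of 0.78 ± 0.27 (adjusted p = 0.0851), and the glycine transporter SLC6A9 had 2.17 ± 0.26 and 0.64 ± 0.22 in the same order, neither called in the second. SLC6A6, the taurine transporter, was lower in the second step (-0.77 ± 0.19, adjusted p = 0.0141), a call lost without 50 µM library 1 or 2.

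Among 9 secreted stress hormones 3 were tested. STC2, stanniocalcin-2, had 952, 898 and 992 CPM at 50 µM, against 471, 486 and 522 CPM at 25 µM and 234, 207 and 225 CPM in vehicle, with all 3 groups separate and steps of 0.94 ± 0.14 (adjusted p = 0.000258) and 1.15 ± 0.15. ADM2, intermedin, moved in the first step (2.27 ± 0.34, adjusted p = 0.000624) and had 0.28 ± 0.28 in the second. The related ADM was lower in the second step, -0.68 ± 0.18, a call lost without 50 µM library 1 or 3 or any single 25 µM library.

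**Figure D3:**
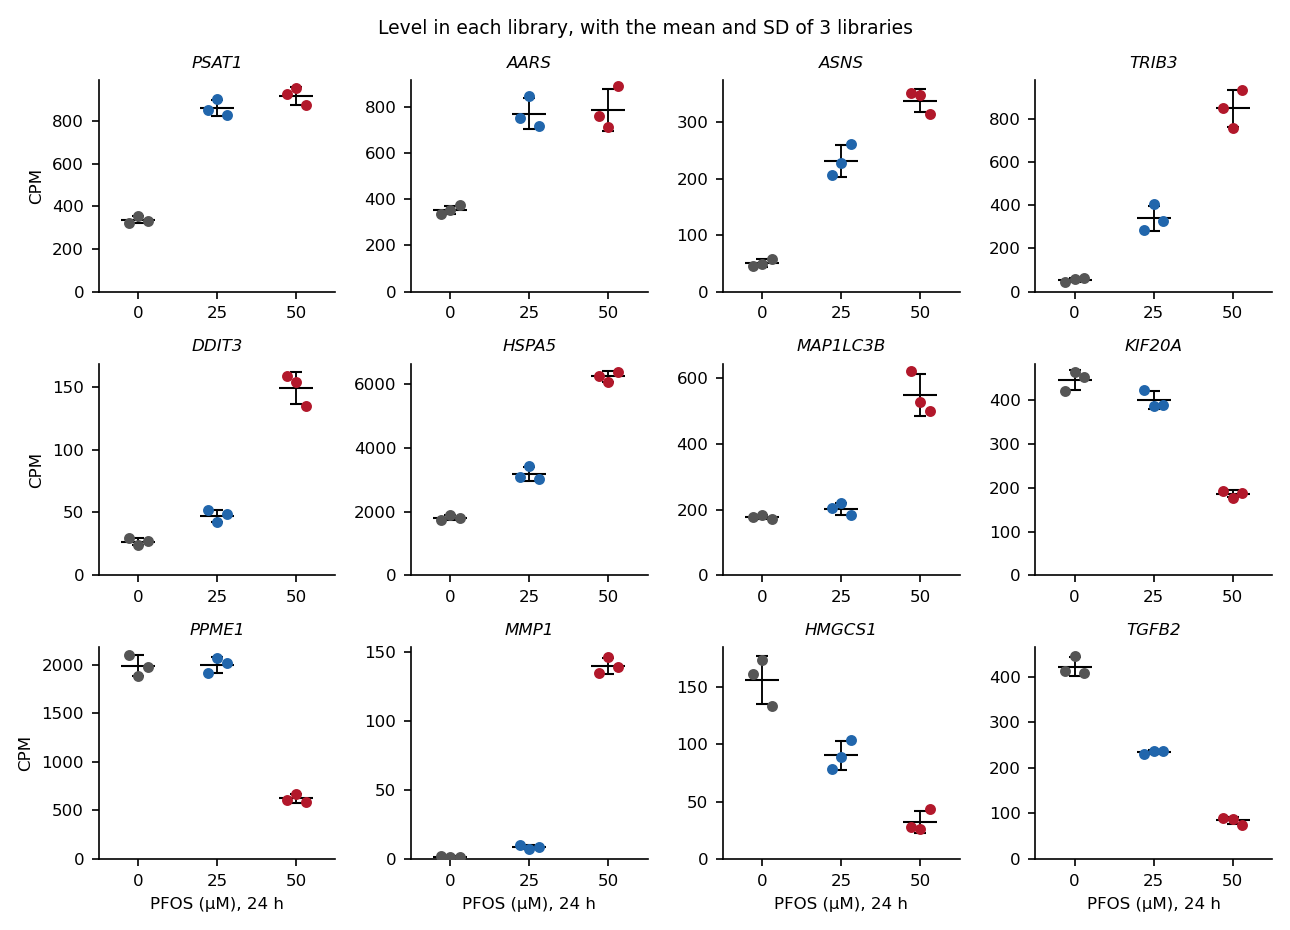
CPM on a linear axis from 0 in each of the 9 libraries at 24 h (points) for 12 genes, against PFOS dose in µM with vehicle at 0; the long bar is the mean and the whiskers the SD of 3 libraries. PSAT1 and AARS overlap between 25 and 50 µM, TRIB3, HSPA5 and HMGCS1 are separate at each dose, and for PPME1, KIF20A and MAP1LC3B the 25 µM libraries overlap vehicle.

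Genes of ER folding and ER-associated degradation were called higher, mostly in the second step. Of 21 folding factors, all tested, 6 were higher in the second step and 1 in the first, with medians of 0.44 and 0.28. Of 23 degradation and export factors, 22 were tested. Of these, 9 were higher in the second step and 2 in the first, with medians of 0.44 and 0.17. No member of either list was called lower in either step. Across both steps, 1 folding factor was lower at 50 µM than in vehicle and 10 were higher. The folding count was 3 without 50 µM library 2. The degradation count was 5 without 50 µM library 1 or 2 or without 25 µM library 2 or 3.

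HSPA5, the ER chaperone BiP, was named after its values were seen. It had 6272, 6075 and 6404 CPM at 50 µM, against 3094, 3422 and 3038 CPM at 25 µM and 1742, 1910.4 and 1793 CPM in vehicle. The 3 groups were separate, and the steps of 0.97 ± 0.11 (adjusted p = 7.57e-06) and 0.81 ± 0.11 (adjusted p = 0.000161) both held in 9 of 9 refits. DNAJB9, an ER co-chaperone, had 151, 157 and 137 CPM at 50 µM, against 41.8, 49.1 and 54.1 CPM at 25 µM and 18.8, 37.8 and 32.7 CPM in vehicle. All 50 µM libraries of DNAJB9 were above all others, and its second step of 1.61 ± 0.21 (adjusted p = 5.05e-05) held in 9 of 9 refits, while its first, 0.62 ± 0.22, was not called (adjusted p = 0.286). SDF2L1, a partner of BiP, followed with 1.10 ± 0.22 and 0.62 ± 0.24.

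SYVN1, the ubiquitin ligase HRD1 of ER-associated degradation, had 633, 733 and 497 CPM at 50 µM, against 242, 231 and 228 CPM at 25 µM and 275, 150.2 and 176 CPM in vehicle. The 25 µM libraries lay inside the vehicle range and the 50 µM libraries above both. The second step was 1.41 ± 0.23 (adjusted p = 0.000634) and held in 9 of 9 refits. HERPUD1, which recruits that ligase, and DERL3, a derlin of the export channel, were graded, with second steps of 1.13 ± 0.14 and 1.16 ± 0.19 after first steps of 0.81 ± 0.14 and 1.42 ± 0.22. The 50-µM-only members were VIMP, CREB3, SSR1, SSR3 and SEC23B. Of these, CREB3, a transcription factor cleaved in the Golgi, and SSR1, a subunit of the translocon-associated protein complex, held their calls in 9 of 9 refits, with second steps of 0.59 ± 0.13 and 0.78 ± 0.16; both were named after their values were seen. PPIB, an ER prolyl isomerase, and ERO1LB, an oxidase of disulfide formation, had second steps of 1.09 ± 0.26 and 1.25 ± 0.35. The call of PPIB was lost without 50 µM library 2 or 25 µM library 2, and that of ERO1LB without any single 50 µM library or without 25 µM library 1 or 3.

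Several large chaperones moved less than the threshold could resolve. CANX, calnexin, had 2042, 1663 and 2115 CPM at 50 µM, against 1784, 1876 and 1737 CPM at 25 µM (0.11 ± 0.15, adjusted p = 0.729). PDIA3 and P4HB, disulfide isomerases, had second steps of 0.16 ± 0.16 and 0.19 ± 0.23, also not called. XBP1, a transcription factor of this response whose activity depends on splicing that gene counts do not show, had 0.00 ± 0.15 (adjusted p = 0.999).

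The ER stress response element, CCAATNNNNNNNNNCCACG, was searched on both strands in the same 250 bases. It was present in 0.074% of all promoters, 26 of 35116. It was found in 6 of the 19 folding genes with a listed promoter (31.6%): HSPA5, HSP90B1, CALR, CANX, CRELD2 and ERO1LB. Of 19 degradation genes, XBP1 held it. The letters CCAAT alone were common, in 32.0% of promoters. HSPA5 and ERO1LB, called in the second step, and CRELD2, not called (0.58 ± 0.19, adjusted p = 0.0713), are shown with the match in capitals; in ERO1LB and CRELD2 it lies on the opposite strand, so the run reads as CGTGG first. The element was thus present in genes that were called and in genes that were not.
HSPA5 chr9:125241361-125241439 (- strand): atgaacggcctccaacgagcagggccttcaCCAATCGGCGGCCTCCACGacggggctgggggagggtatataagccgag
ERO1LB chr1:236282153-236282208 (- strand): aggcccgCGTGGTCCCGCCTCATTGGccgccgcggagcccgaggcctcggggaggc
CRELD2 chr22:49918524-49918602 (+ strand): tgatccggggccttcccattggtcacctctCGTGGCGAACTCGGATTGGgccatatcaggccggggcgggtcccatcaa

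Some autophagy genes were higher at 50 µM. Of 24 autophagy genes, all tested, 4 were higher in the second step and 2 in the first, with a second-step median of 0.15. Over all genes tested 3.79% were higher in the second step and 0.782% in the first. MAP1LC3B, the ubiquitin-like protein that coats autophagosomes, had 622, 529 and 499 CPM at 50 µM, against 206, 219 and 183 CPM at 25 µM and 178, 185 and 172 CPM in vehicle. It was a 50-µM-only gene: the 25 µM libraries overlapped vehicle, and the second step was 1.44 ± 0.17 (adjusted p = 1.61e-05, 9 of 9 refits). SQSTM1, the cargo receptor p62, and WIPI1, which binds the forming membrane, were graded, with second steps of 0.75 ± 0.17 and 1.22 ± 0.14. Their first-step calls held in 5 of 9 refits and 0 of 9 refits, and the first-step count of 2 was 0 or 1 in every refit. BECN1, a subunit of the lipid kinase that starts autophagosomes, was higher by 0.63 ± 0.14, a call lost without 50 µM library 2 or 25 µM library 1. Among 24 tested lysosomal genes the proteases CTSB and CTSL were higher (0.61 ± 0.15 and 0.89 ± 0.23) and the proton pump subunit ATP6V1A was lower (-0.78 ± 0.20). None of these lysosomal calls held when any 25 µM library was left out. Over all genes tested 3.79% were higher and 3.62% lower in the second step.

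Most genes of cholesterol synthesis were lower at 50 µM than at 25 µM. Of 10 genes from acetyl-CoA to squalene, all tested, 7 were lower at 50 µM than at 25 µM and 1 was lower at 25 µM than in vehicle. The medians were -0.94 in the second step and -0.47 in the first. Of 11 later genes, all tested, 7 were lower in the second step and none in the first, with medians of -0.90 and -0.30. Of these 11, 10 had a first step below 0. The early count was 6 or 7 in every refit, and the later count was 4 without 50 µM library 2.

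HMGCS1, a synthase early in the mevalonate pathway, had 27.9, 25.95 and 43.3 CPM at 50 µM, against 78.5, 89.03 and 104 CPM at 25 µM and 161, 174 and 133 CPM in vehicle. The 3 groups were separate and ordered by dose. Its second step of -1.43 ± 0.29 was called (adjusted p = 0.00359, 9 of 9 refits), and its first of -0.78 ± 0.26 was not (adjusted p = 0.215). MVD and IDI1, of the mevalonate and isoprenoid steps, fell by 1.29 and 1.18 on the log2 scale in the second step. CYP51A1, the lanosterol demethylase, was a 50-µM-only gene, with 109.7, 112 and 119.8 CPM at 50 µM, against 267, 269.8 and 270.4 CPM at 25 µM and 315, 362 and 317 CPM in vehicle. Its 50 µM libraries were far below the other 6, and the second step of -1.24 ± 0.14 held in 9 of 9 refits. Its 25 µM libraries were also all below every vehicle library, a shift inside the margin of that pattern. TM7SF2, a sterol reductase, had a second step of -1.93 ± 0.27, held in 9 of 9 refits.

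Of 16 genes of sterol sensing, uptake and export 13 were tested; 3 were lower in the second step and 1 was higher. STARD4, a sterol carrier, was lower (-0.99 ± 0.25, held in 5 of 9 refits, lost without 50 µM library 2 or 3 or 25 µM library 2 or 3). INSIG1, which retains SREBP in the ER and is itself an SREBP target, had 316, 361 and 392 CPM at 50 µM, against 942, 939 and 813 CPM at 25 µM and 1087, 1233 and 1160.5 CPM in vehicle. Every 50 µM library was below every other, with a second step of -1.33 ± 0.17 (adjusted p = 3.08e-05, 9 of 9 refits). ABCA1, the cholesterol exporter driven by liver X receptors, was higher: 62.1, 46.5 and 60.7 CPM at 50 µM, against 22.3, 24.6 and 30.8 CPM at 25 µM and 10.6, 10.8 and 14.4 CPM in vehicle. The second step of ABCA1, 1.14 ± 0.24 (adjusted p = 0.00465), held in 9 of 9 refits, while its first-step call was lost in every refit. A sterol element, TCACNCCAC, searched on both strands in the same 250 bases, was present in 0.883% of promoters. It was in none of the 7 early, 9 later and 15 fatty acid synthesis genes with a listed promoter, and in 1 of 11 sensing genes, SREBF2.

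Genes of fatty acid synthesis were called in the second step and not in the first. Of 18 listed genes 16 were tested; 9 were lower in the second step and none was called in the first, with medians of -0.71 and -0.07. FASN, the fatty acid synthase, had 63.1, 50.8 and 67.8 CPM at 50 µM, against 147, 176 and 147 CPM at 25 µM and 135, 129.7 and 143 CPM in vehicle. The 25 µM libraries were the highest of the 3 groups, and the second step was -1.36 ± 0.30 (adjusted p = 0.0068, 9 of 9 refits) after a first of 0.20 ± 0.28 that was not called (adjusted p = 0.914). ACSS2, which makes acetyl-CoA from acetate, fell by 1.47 on the log2 scale, and the acyl-CoA ligase ACSL3, a 50-µM-only gene, by 0.93. These 3 calls held in 9 of 9 refits. The count of 9 was 3, 5 and 4 without 50 µM library 1, 2 and 3, and 3 without 25 µM library 1 or 2.

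Of 16 targets of the PPAR nuclear receptors 8 were tested; 2 were higher in the second step and 1 in the first. ANGPTL4, an inhibitor of lipoprotein lipase, had 32.1, 43.3 and 37.2 CPM at 50 µM, against 7.92, 13.5 and 17.6 CPM at 25 µM, and no count in any vehicle library. The dosed groups did not overlap. Taking a floor of 3 counts over the vehicle group, the scaled ratio of ANGPTL4 to that floor was 87.5 at 50 µM and 31.2 at 25 µM. The dosed counts, 144 and 89, were taken as exact, so these ratios are not strict lower bounds. The second step was 1.503 ± 0.34 (adjusted p = 0.0107), lost without 50 µM library 2 or 25 µM library 1 or 2. PLIN2, which coats lipid droplets, had 256, 264 and 306 CPM at 50 µM, against 120.3, 161 and 130.2 CPM at 25 µM and 91.7, 123 and 112 CPM in vehicle, a second step of 1.00 ± 0.19 (adjusted p = 0.0023) that held in 9 of 9 refits. Among 17 tested genes of fatty acid oxidation, 2 were higher in the first step (ACADVL and ACAA2, 0.78 ± 0.19) and 1, ETFDH, an electron carrier of the mitochondrial membrane, was lower in the second (-0.99 ± 0.22). The first-step count of 2 was 0 without 25 µM library 1 or 2 or vehicle library 1 or 2, and 1 without 50 µM library 1 or 3, 25 µM library 3 or vehicle library 3.

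In mitosis 16 of 33 listed genes, all tested, were lower at 50 µM than at 25 µM, and none was called in the first step; 13 of the 16 were 50-µM-only. The medians were -0.55 in the second step and -0.20 in the first, and 29 of the 33 first steps were below 0. The difference between the steps was called for no mitotic gene of the list. In 26 of the 33 genes every 50 µM library was below every 25 µM library, which held for 18.1% of all genes tested. The count of 16 was 10 without 50 µM library 3, 9 without 25 µM library 1 and 10 without 25 µM library 2.

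KIF20A, a kinesin of cytokinesis, had 194, 177 and 188 CPM at 50 µM, against 423, 388 and 389 CPM at 25 µM and 421, 464 and 454 CPM in vehicle. The 50 µM libraries were less than every other by a wide margin and the 25 µM libraries overlapped vehicle; the second step was -1.10 ± 0.15 (adjusted p = 5.77e-05, 9 of 9 refits). AURKA, the spindle-pole kinase, had 424, 438 and 379.9 CPM at 50 µM, against 704, 672 and 674 CPM at 25 µM and 794, 868 and 761 CPM in vehicle, a second step of -0.72 ± 0.12. All 25 µM libraries of AURKA were also below every vehicle library. TPX2, which activates that kinase, and DLGAP5, a spindle stabiliser, had second steps of -0.79 ± 0.12 and -0.86 ± 0.14. TOP2A, the topoisomerase that untangles chromosomes, fell by 0.54 on the log2 scale, with 891, 864 and 742 CPM at 50 µM, against 1157, 1250.2 and 1211 CPM at 25 µM. All of these held in 9 of 9 refits; AURKA and TOP2A were named after their values were seen. Not every member was called: CCNB1, cyclin B1, had 549.5, 566 and 496 CPM at 50 µM, against 744, 669 and 748 CPM at 25 µM (-0.42 ± 0.15, adjusted p = 0.092), PLK1, the polo-like kinase, had -0.43 ± 0.17 (adjusted p = 0.144) and CDC20, an activator of the anaphase-promoting complex, -0.11 ± 0.14 (adjusted p = 0.706).

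Of 34 DNA replication genes 33 were tested; 5 were lower in the second step, all 50-µM-only, and the median was -0.38. In 21 of the 33, every 50 µM library was below every 25 µM library, against 18.1% of all genes tested. MCM6, a helicase subunit, had 143, 118 and 99.9 CPM at 50 µM, against 194, 246 and 191 CPM at 25 µM and 231, 203 and 212 CPM in vehicle. It fell by 0.82 on the log2 scale (adjusted p = 0.00426) and held in 9 of 9 refits. The other four, MCM4, RRM1, RRM2 and UHRF1, each lost their call in at least 4 refits, and the count was 1, 2 and 3 without 50 µM library 1, 2 and 3 and 2, 1 and 2 without 25 µM library 1, 2 and 3. Among 22 tested p53-related genes, the cell-cycle inhibitor CDKN1A was higher (0.74 ± 0.18) and the inhibitor CDKN2B was lower, with 22.8, 17.3 and 19.4 CPM at 50 µM, against 44.6, 53.7 and 37.7 CPM at 25 µM (-1.21 ± 0.25, adjusted p = 0.00384). PLK2, a p53-inducible kinase, was lower (-1.15 ± 0.12). These calls stand beside shares of 3.79% higher and 3.62% lower over all genes tested. The call of CDKN1A was lost without 50 µM library 2 or 3 or 25 µM library 1, and the calls of CDKN2B and PLK2 held in every refit.

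Many mitotic promoters carry the cell-cycle homology region, TTTGAA, which was searched on both strands in the 250 upstream bases. It was present in 13.3% of all promoters and in 14 of the 29 mitotic genes with a listed promoter (48.3%). TOP2A and CCNB2, called in the second step (CCNB2 at -0.61 ± 0.15, lost without 50 µM library 1 or 3 or 25 µM library 1), and PLK1, not called, are shown with the matches in capitals; TTCAAA marks a match on the opposite strand. The 3 runs show that genes on either side of the threshold carry the same letters.
TOP2A chr17:40418012-40418120 (- strand): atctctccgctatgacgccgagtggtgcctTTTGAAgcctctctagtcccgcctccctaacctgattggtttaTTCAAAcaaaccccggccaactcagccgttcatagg
CCNB2 chr15:59105087-59105145 (+ strand): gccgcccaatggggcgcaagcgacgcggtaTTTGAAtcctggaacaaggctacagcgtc
PLK1 chr16:23678830-23678888 (+ strand): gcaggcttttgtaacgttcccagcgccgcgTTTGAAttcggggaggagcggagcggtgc

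**Figure D4:**
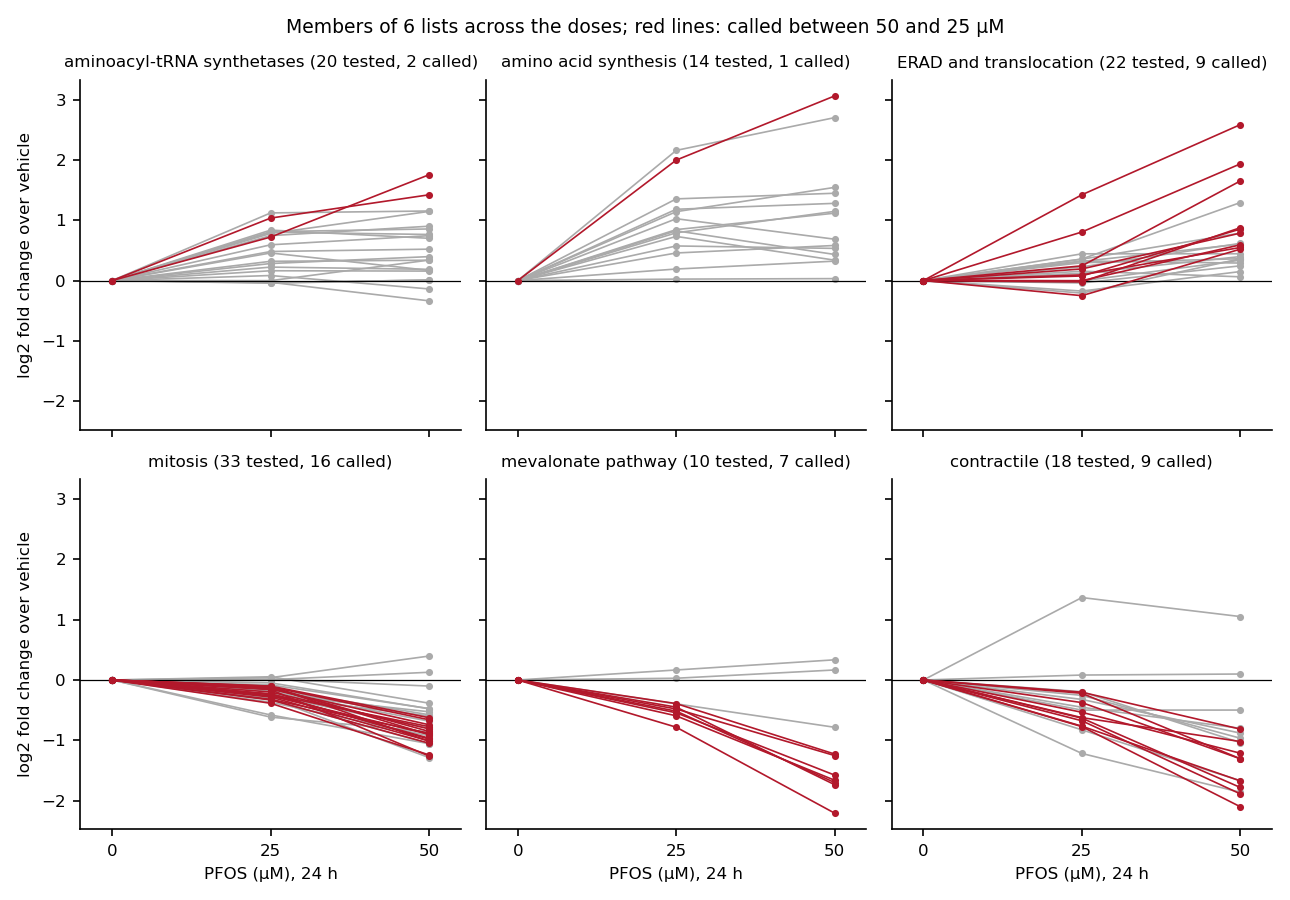
Each line joins the log2 change of 1 tested gene from vehicle at 0, 25 and 50 µM, for 6 lists; red lines are genes called between 50 and 25 µM. Red lines are 2 of 20 among synthetases and 1 of 14 in amino acid synthesis, against 9 of 22 in ER degradation and translocation, 16 of 33 in mitosis, 7 of 10 in the mevalonate pathway and 9 of 18 among contractile genes.

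Some secreted inflammatory mediators and proteases were higher at 50 µM. Of 27 inflammatory genes 10 were tested; 3 were higher in the second step and 1 in the first. CXCL8, the neutrophil chemokine interleukin-8, had 19.7, 20.5 and 11.2 CPM at 50 µM, against 1.44, 2.70 and 4.40 CPM at 25 µM and 0, 2.88 and 2.65 CPM in vehicle. The 25 µM and vehicle libraries overlapped, and the second step was 2.49 ± 0.46 (adjusted p = 0.00166, 9 of 9 refits). Leaving out CXCL8, which was tested through its 50 µM level alone, 2 of 9 inflammatory genes were higher. PTX3, a secreted pentraxin, was graded, with 223, 209.8 and 265 CPM at 50 µM, against 41.05, 41.3 and 40.9 CPM at 25 µM and 5.88, 10.8 and 14.4 CPM in vehicle; its steps of 2.50 ± 0.22 and 1.83 ± 0.26 held in 9 of 9 refits. IL6, the cytokine interleukin-6, had 12.4, 10.8 and 12.7 CPM at 50 µM, against 2.88, 4.86 and 1.89 CPM at 25 µM and 3.53, 7.93 and 4.12 CPM in vehicle, and its second step of 1.74 ± 0.43 was lost without 50 µM library 1 or 3 or 25 µM library 1 or 3. NFKBIA, an inhibitor and target of NF-κB, was not called (0.21 ± 0.28, adjusted p = 0.728).

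Of 28 matrix proteases, plasminogen factors and inhibitors 17 were tested, and 4 were higher in the second step. MMP1, interstitial collagenase, had 135, 146 and 139 CPM at 50 µM, against 10.1, 7.01 and 8.81 CPM at 25 µM and 2.35, 1.80 and 1.18 CPM in vehicle. The 3 groups were separate, and the second step was 4.07 ± 0.29 (adjusted p = 1.71e-08, 9 of 9 refits) after a first of 2.34 ± 0.47 that held in 7 of 9 refits. SERPINB2, the plasminogen activator inhibitor PAI-2, had 13.5, 18.4 and 8.67 CPM at 50 µM, against 2.16, 0.809 and 0 CPM at 25 µM and 0, 0 and 0.294 CPM in vehicle, a second step of 3.73 ± 0.63 (adjusted p = 0.00142). It too was tested through its 50 µM level alone, and without it 3 of 16 were higher. PLAUR, the urokinase receptor, was higher by 1.77 ± 0.17. SERPINE2, protease nexin-1, had more of its change in the first step (1.46 ± 0.13) than in the second (0.66 ± 0.13), though the difference between them was not called (adjusted p = 0.253). F3, tissue factor, was called in the first step (-1.19 ± 0.28, lost in 8 of 9 refits) and not in the second (-0.02 ± 0.33), with 12.4, 12.98 and 9.69 CPM at 50 µM, against 10.1, 12.9 and 10.7 CPM at 25 µM and 30.6, 20.9 and 29.4 CPM in vehicle.

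Some feedback regulators of MAP kinase signalling were higher at 50 µM. Of 22 listed 14 were tested, and 5 were higher in the second step, against 3.79% of all genes tested. The medians were 0.66 and 0.17 in the second and first steps. HBEGF, a ligand described below, is among the 5. It was the 1 member called lower in the first step, and its 50 µM libraries overlapped vehicle. DUSP6, the ERK phosphatase, had 142, 163 and 168 CPM at 50 µM, against 83.5, 85.2 and 81.1 CPM at 25 µM and 82.3, 73.1 and 82.2 CPM in vehicle. It was 50-µM-only, at 0.92 ± 0.16 (adjusted p = 0.00124, 9 of 9 refits). SPRY4, a Sprouty inhibitor, and PHLDA1, an ERK-induced gene, had second steps of 1.72 ± 0.31 and 1.16 ± 0.24, and held in every refit. The count of 5 was 3 without 50 µM library 1 or 25 µM library 1 or 2. Of 16 tested immediate-early and AP-1 genes, FOSL1, a Fos-family subunit, and IER3, an early stress gene, were higher (0.88 ± 0.15 and 1.12 ± 0.18). The share over all genes tested was again 3.79%. MYC was not called (0.17 ± 0.19, adjusted p = 0.685).

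Only 2 genes reversed direction, and both were near the threshold. HBEGF, an EGF receptor ligand named after its values were seen, had 242, 258 and 219.8 CPM at 50 µM, against 149.8, 154 and 152 CPM at 25 µM and 316, 228 and 246 CPM in vehicle. CD274, the checkpoint ligand PD-L1, also named after its values were seen, had 97.3, 112 and 113 CPM at 50 µM, against 60.5, 72.6 and 75.5 CPM at 25 µM and 168, 106 and 125 CPM in vehicle. In both genes the 25 µM libraries were the lowest and did not overlap either neighbour. The second steps of 0.66 ± 0.17 and 0.63 ± 0.19 held in 4 of 9 refits and 2 of 9 refits, and the first steps of -0.79 ± 0.17 and -0.91 ± 0.18 in 5 of 9 refits and 6 of 9 refits. Of 33 interferon-stimulated genes 23 were tested. In each step 1 was lower, with medians of -0.14 in the second and -0.41 in the first. Over all genes tested 3.62% were lower in the second step and 0.457% in the first. Over both steps 8 were lower at 50 µM than in vehicle, with a median of -0.75, against 9.59% of all genes tested. The 33 listed genes summed to 2481, 3692 and 2330 CPM at 50 µM and 2271, 1931 and 2397 CPM at 25 µM. In vehicle the sums were 3540, 2049 and 2671 CPM. Vehicle library 1 and 50 µM library 2, set apart by the second component, had the highest sums. MX1, a GTPase that blocks viral replication, had 2.07, 2.16 and 2.55 CPM at 50 µM, against 5.04, 8.90 and 7.55 CPM at 25 µM and 18.8, 10.4 and 12.1 CPM in vehicle, a second step of -1.67 ± 0.43 (adjusted p = 0.0192) that was lost without any single 50 µM library or 25 µM library 2. IFIT1, an RNA-binding antiviral protein, fell in the first step (-1.69 ± 0.27, adjusted p = 0.00149) and had -0.98 ± 0.39 in the second (adjusted p = 0.143).

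Some genes of collagen and of the contractile cytoskeleton were lower at 50 µM. Of 22 collagens 15 were tested and 5 were lower in the second step, none in the first, with medians of -0.88 and -0.19. Of 18 contractile genes, all tested, 9 were lower in the second step and 3 in the first (-0.69 and -0.48). Over all genes tested 3.62% were lower in the second step and 0.457% in the first. The first-step contractile count was 1 without 25 µM library 2 or 3. The summed mesenchymal markers given above were lower over the same groups, but not as one: COL1A1 averaged 727 CPM at 50 µM, against 1607 CPM at 25 µM, and THY1 295 against 511 CPM, while NT5E averaged 149 CPM at 50 µM, against 56.6 CPM at 25 µM, and VIM 642 against 576 CPM. Of these markers COL1A1 and COL1A2 are members of the collagen list and ACTA2 of the contractile list, so the sum is not separate from them. Among those 13 markers 2 were called lower and 1 higher in the second step.

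COL4A1, a chain of basement membrane collagen, had 13.5, 22.7 and 10.7 CPM at 50 µM, against 52.6, 49.6 and 49.1 CPM at 25 µM and 63.5, 59.5 and 63.6 CPM in vehicle. The 50 µM libraries varied among themselves but all lay below the others, with a second step of -1.76 ± 0.24 (adjusted p = 7.32e-05, 9 of 9 refits). COL8A1 and COL5A2 fell by 1.65 and 1.35 on the log2 scale. The fibrillar chains COL1A1 and COL1A2 were not called (-1.14 ± 0.36 and -0.74 ± 0.25). CALD1, the actin regulator caldesmon, was graded, with 321, 295 and 302 CPM at 50 µM, against 721, 790.5 and 795 CPM at 25 µM and 1363, 1312 and 1268 CPM in vehicle, and steps of -1.33 ± 0.12 and -0.77 ± 0.11 that held in every refit. VCL, vinculin, and CNN2, a calponin, fell by 1.21 and 1.15 on the log2 scale in the second step. The collagen count was 3 without 50 µM library 1 or 2 or 25 µM library 2, and the contractile count was 5 without 50 µM library 1.

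LOX, which cross-links collagen, was higher and graded, the sole gene called in the second step among 15 tested collagen-modifying genes: 1434, 1222 and 1348 CPM at 50 µM, against 567, 678 and 597 CPM at 25 µM and 329, 309 and 318 CPM in vehicle, with steps of 1.12 ± 0.16 and 0.95 ± 0.16. Of 20 tested TGF-β and YAP target genes, 1 was higher and 5 were lower in the second step, against 3.79% and 3.62% of all genes tested. TGFB2, the ligand TGF-β2, had 90.04, 88.7 and 75.5 CPM at 50 µM, against 230.4, 237 and 237 CPM at 25 µM and 412, 446 and 408 CPM in vehicle, a second step of -1.48 ± 0.19 (adjusted p = 5.45e-05, 9 of 9 refits). AMOTL2, an angiomotin that restrains YAP, was 50-µM-only, with 127, 134 and 146 CPM at 50 µM, against 388, 428 and 371 CPM at 25 µM and 354, 397 and 413 CPM in vehicle, and fell by 1.54 on the log2 scale. CTGF, a YAP target, had 173, 334 and 149.9 CPM at 50 µM, against 207, 192 and 203 CPM at 25 µM and 675, 428 and 261 CPM in vehicle. Its 50 µM values spread around those at 25 µM, with library 2 the highest, and the second step of 0.12 ± 0.28 was not called.

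Some genes of oxidative and metal responses were called in the second step. Of 25 NRF2 targets 20 were tested. In the second step 5 were higher and 1, ME1, was lower, a call lost without any single 50 µM library. The second-step median was 0.12, with 7 of 20 steps below 0. Over all genes tested 3.79% were higher and 3.62% lower. In the first step 3 were higher, against 0.782% of all genes tested. TXNRD1, thioredoxin reductase, was graded (0.73 ± 0.14 and 0.78 ± 0.15), the second step in 9 of 9 refits. HMOX1, haem oxygenase, had 24.8, 16.2 and 21.4 CPM at 50 µM, against 10.1, 8.09 and 13.8 CPM at 25 µM and 5.88, 8.29 and 9.72 CPM in vehicle, and its call (1.02 ± 0.30) held in 2 of 9 refits; it was lost without 50 µM library 1, 2 or 3, 25 µM library 1 or 2, or vehicle library 2 or 3. The count of 5 was 1 without 50 µM library 2 or 25 µM library 2. The first-step count of 3 was 0 without 25 µM library 2 and 1 without 25 µM library 3 or any single vehicle library. Of 9 metallothioneins 3 were tested. MT2A, a zinc-binding metallothionein, had 250.4, 298 and 245 CPM at 50 µM, against 79.9, 49.1 and 61.01 CPM at 25 µM and 30.6, 48.3 and 39.5 CPM in vehicle. All 50 µM libraries were above all others, and the second step was 2.08 ± 0.34 (adjusted p = 0.000482, 9 of 9 refits). MT1E rose by 2.43, a call lost without 25 µM library 2. Metallothioneins are close in sequence, so reads may be shared among copies.

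The other motifs were searched in the same way. The NRF2 element TGACNNNGC, in 10.9% of promoters, was in 3 of 14 NRF2 targets, and the metal element TGCNCNC, in 49.1%, was in MT2A, the 1 tested metallothionein with a listed promoter. The AP-1 site TGANTCA, in 6.57% of promoters, was in 4 of 11 proteases and inhibitors and in none of 12 immediate-early and AP-1 genes. The interferon element GAAANNGAAA, in 3.02% of promoters, was in 11 of 19 interferon-stimulated genes. These counts describe letters near the start and say nothing of binding.

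Among the remaining lists, none of 33 respiratory chain, 14 MHC class I, 13 BCL2 family or 23 acetyltransferase and deacetylase genes tested was called in the second step; their medians were 0.06, 0.06, 0.15 and 0.06. Of 31 proteasome genes PSMD1 was lower (-0.60 ± 0.12), of 22 tested heat-shock genes HSP90AB1 was higher (0.87 ± 0.19, lost without 50 µM library 2), and of 8 tested xenobiotic genes the efflux pump ABCB1 was lower (-0.87 ± 0.19). Over all genes tested 3.79% were called higher and 3.62% lower, so single calls in such lists say nothing of the lists as a whole. Of 18 tested glycolytic genes SLC2A3, a glucose transporter, was higher (1.06 ± 0.19) and LDHA, lactate dehydrogenase A, was lower, with 1281, 1299.8 and 1167 CPM at 50 µM, against 2553, 2248 and 2542 CPM at 25 µM and 2776, 3190.2 and 3152 CPM in vehicle. Of 12 tested hypoxia genes, NDRG1 was higher (1.72 ± 0.42, held in 6 of 9 refits) and HIF1A, the oxygen-regulated factor itself, was lower (-0.48 ± 0.13, held in 4 of 9 refits), beside ADM above. NDRG1 was tested through its 50 µM level alone, and without it 0 of 11 hypoxia genes were higher. Of 79 tested ribosomal protein genes 2 were higher, RPL31 and RPLP0, with a median of 0.36 and 76 of 79 steps above 0, and in 30 every 50 µM library lay above every 25 µM library, which held for 17.2% of all genes tested. Their summed level was 19791, 25815 and 18378 CPM in the 50 µM libraries, against 16664, 12113 and 16097 CPM at 25 µM. No ribosomal protein gene was called without 50 µM library 2 or without any single 25 µM library.

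The genes with the largest called second steps lay mostly outside the lists. They were picked from called genes whose 50 and 25 µM libraries did not overlap, so that separation was fixed by the choice. The same holds for those of them described above, among them MMP1 and MT2A. THBD, thrombomodulin, had 15.5, 10.8 and 22.9 CPM at 50 µM, against 0.72, 0 and 1.26 CPM at 25 µM and 0, 0.721 and 0.589 CPM in vehicle. These were 70 counts in all at 50 µM against 3 at 25 µM, a ratio of 40.5 after scaling (95% interval 13.3 to 201, counting error only). THBD was tested through its 50 µM level alone and picked for its large step, and the interval does not allow for that. The 50 µM libraries were all above the others, which overlapped each other. FHDC1, a formin, was the reverse, with 0, 1.08 and 0 CPM at 50 µM, against 10.1, 8.63 and 6.92 CPM at 25 µM and 10.6, 8.29 and 7.66 CPM in vehicle. It had 1 count at 50 µM against 57 at 25 µM, 32.8-fold lower with a counting interval of 5.65 to 1320.

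HAS2, a hyaluronan synthase, had 41.4, 36.8 and 60.2 CPM at 50 µM, against 8.64, 8.09 and 11.9 CPM at 25 µM and 11.8, 6.49 and 8.83 CPM in vehicle, and GFPT2, the entry enzyme of the hexosamine pathway that supplies its substrate, had 162, 134 and 174, against 33.8, 43.7 and 34.6 and 28.2, 17.3 and 27.4 CPM. Both were higher in the second step, by 2.33 ± 0.31 and 2.05 ± 0.19, and held in 9 of 9 refits. Their 50 µM libraries also lay above every vehicle library. DNER, a transmembrane protein with EGF-like repeats, and TM4SF19, a tetraspan membrane protein, rose by 2.05 ± 0.33 and 3.10 ± 0.55. RPLP0P2 rose by 4.25 ± 0.23, but it is a near-identical copy of RPLP0, so its reads are uncertain. TM4SF19 and RPLP0P2 were tested through their 50 µM level alone.

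Among decreases, PDGFRB, the receptor for platelet-derived growth factor B, had 9.31, 22.7 and 21.4 CPM at 50 µM, against 84.3, 90.9 and 81.1 CPM at 25 µM and 114, 94.4 and 93.1 CPM in vehicle. Its second step was -2.22 ± 0.33 (adjusted p = 0.000195) and its first -0.22 ± 0.27 (adjusted p = 0.904). KRT80, a keratin, ITGB8, an integrin that activates latent TGF-β, and ZBED2, a zinc-finger protein, had second steps of -2.08 ± 0.24, -2.23 ± 0.33 and -2.85 ± 0.49, each with the vehicle libraries above those at 25 µM and a first step that was not called. DSC2, a desmosomal cadherin, and MDGA1, a membrane-anchored adhesion protein, fell by 2.81 and 2.23 on the log2 scale. All 6 of these decreases held in 9 of 9 refits. GBP1, an interferon-induced GTPase, was graded (-1.99 ± 0.53 and -1.41 ± 0.32). Its second step was lost without 50 µM library 3 or 25 µM library 2 or 3. KCNIP1, a potassium channel partner, and LRRN4, a leucine-rich repeat protein, had -2.20 ± 0.62 and -1.97 ± 0.59, with calls held in 4 of 9 refits and 2 of 9 refits.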

How the data were processed

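Smart-seq2 libraries carry neither molecular identifiers nor strand, so reads of overlapping or near-identical genes cannot be told apart. Per the file header, the deposited counts form 1 table with 25344 gene symbols as rows and 18 libraries as columns. The submitters' processing notes list Trimmomatic, STAR, DESeq2 and MACS2 and the build GRCh38 (hg38) for the series, without saying which made this table.

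Counts were used as deposited. Genes kept by edgeR's filterByExpr with a minimum count of 10 numbered 9847, holding 99.2% of counts, while 7391 genes were 0 throughout. Libraries were scaled by TMM, and 1 model with 6 group means was fitted to all 18 (edgeR 4.0.16, limma 3.58.1, R 4.3.3). The median biological coefficient of variation was 16.0%. Contrasts were tested by quasi-likelihood F tests, two-sided, with Benjamini-Hochberg adjustment over all 9847 genes. SE is the absolute log2 change divided by the square root of F. CPM are TMM-scaled. List counts cover the tested members. A gene that passed the filter through 1 group only was tested because it was high there, and 13 of the 23 such genes of the 50 µM group were called. Alternatives used DESeq2 1.42.0, other scaling, filters, library subsets, thinned counts and a replicate block. On simulated data the script for the test recovered large planted changes. They were planted only in genes of higher level, with the spread of the fit, so genes near the filter were not covered. Intervals of ratios are exact and cover counting error only.

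Named genes were the 12 largest called increases and decreases at 5 CPM or more with no overlap between libraries, the 10 largest changes among genes full at 25 µM, genes called for the difference of steps, and per list up to 4 called, 4 called in the first step alone and 3 called in neither. Members, lists and alternatives were chosen with earlier results of these data known. Promoters are from RefSeq (GRCh38.p14). Not every named gene is described.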

Additional observations from a re-analysis of the deposited data

Results flagged for a closer look

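Among the 24 genes with the largest called second steps, the 50 µM over 25 µM contrast at 24 h differed from the same contrast after 24 h without PFOS in 9, by edgeR's interaction contrast adjusted over all genes, which called 275 of 9847. The 24 genes were chosen by the 24 h contrast, which also enters the difference, so the 9 are a description. THBD had a fitted difference of 8.77 log2 units, which is no measured size: it had no count in the 50 µM recovery libraries and 1.68, 0.893 and 0 CPM in the 25 µM ones, with a recovery step of -3.74 ± 2.08 that was not called (adjusted p = 0.207). RPLP0P2, whose reads may belong to RPLP0, differed by 3.05, PTX3 by 1.91, HAS2 by 1.87 and GFPT2 by 1.61, and these 4 had smaller positive steps after recovery (1.20, 0.59, 0.46 and 0.44). ZBED2 differed by -3.65 and ITGB8 by -2.63, with steps of 0.81 and 0.40 after recovery, TM7SF2 by -1.59 and KRT80 by -1.31, with steps of -0.34 and -0.77. MMP1 was not among them: its step was 4.07 at 24 h and 4.12 after recovery, a difference of -0.05.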

How the results depend on the processing

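Counts of calls moved most with the libraries in the model. The second step called 729 genes in the 18-library model, 1932 with its 6 libraries alone, 1860 with the 9 at 24 h and 1544 with 15 that leave out the 50 µM recovery group. It called 376 without vehicle library 1 and 50 µM library 2, an alternative chosen after seeing the data, and 439 with counts thinned to the shallowest library. In the same settings (9 libraries, 15 libraries, without those 2 libraries, thinned) the first step called 375, 285, 63 and 51 and 50 µM over vehicle 3147, 2828, 1172 and 1135. The 50-µM-only pattern then held 1070, 812, 73 and 95 genes, the graded pattern 203, 161, 32 and 23, the genes full at 25 µM 83, 49, 6 and 9, and the opposite pattern 10, 7, 0 and 0. The test of the difference between steps called 135 with 9 libraries, 61 with 15, 2 without those 2 libraries, 33 by DESeq2 and 50 with no filter, which also gave 7 opposite genes. A margin of 0.4 log2 units left 52 genes in the 50-µM-only pattern and 4 full at 25 µM, and a margin of 1 gave 543 and 43. The cause of these shifts was not tested. 

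Leaving out 1 library at a time gave 347 to 727 calls in the second step, 49 to 105 in the first, 1139 to 1767 over vehicle and 1 to 2 for the difference. It gave 69 to 188 genes in the 50-µM-only pattern, 24 to 43 graded, 4 to 12 full at 25 µM and 0 to 2 opposite. Of 118 named genes called in the second step, 78 were called in every such refit. DESeq2 called 848 and DESeq2's size factors in edgeR 726. No called value changed sign. Uncalled values near 0 did in some refits: the second-step median was -0.06 to 0.08 for the respiratory chain and -0.10 to 0.10 for acetyltransferases and deacetylases, and the second step was -0.32 to 0.33 for CTGF and -0.07 to 0.10 for AARS.

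Deviations of same-numbered 50 and 25 µM libraries correlated at -0.04, -0.16 and -0.07, so the counts showed no shared deviation by replicate number. Whether same-numbered libraries were paired in culture cannot be told from these values. With a replicate block the second step called 627 genes, the first 89, 50 µM over vehicle 1719 and the difference 2, and the patterns held 43 graded genes and 1 opposite. What depth limits is seen in the thinned counts, 439 calls against 729.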
